A study of Homo sapiens with 15 samples.

Results

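The genes described here are 35 genes of the actin cytoskeleton and of serum response factor (SRF), taken as a named list and read from the deposited values of A549 cells exposed to geldanamycin. They comprise SRF, actins, actin monomer binders, filament crosslinkers, tropomyosins and other filament-binding proteins, myosin II subunits, adhesion proteins, and the target genes CCN1, CCN2 and ANKRD1. Each gene was found by its current or former symbol and read from the probe set with that single symbol and the highest mean over the 15 arrays, and 33 of the 35 were measured in this way, out of 19775 genes in all. ACTG1 has 9 probe sets here, all of which also carry another symbol, and FLNA has no single-symbol probe set among those used, so neither is given a value.

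A549 is a human lung carcinoma line of epithelial type, and geldanamycin is an inhibitor of the chaperone HSP90. Cells attached for 24 h and were then kept for 24 h in vehicle (DMSO at a final 0.4%) or in 40 nM geldanamycin, or for 48 h in vehicle, in 10 nM or in 40 nM geldanamycin. The labels give 40 nM as the IC50 and 10 nM as the IC20, and cells were detached with trypsin and frozen before RNA was extracted. Each of the 5 groups has 3 arrays (Affymetrix HG-U133 Plus 2.0), all groups are of the same line, and the labels do not name separate cultures behind the replicates. The p-values therefore describe the spread among these arrays only, and that spread could be technical.

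Actin cycles between monomers and filaments. SRF is a transcription factor that binds a DNA element called the CArG box, with cofactors of the MRTF family, which are held by actin monomers and freed when monomers are used up in filaments, or with ternary complex factors (TCF), which respond to ERK signalling. Many genes for actin, its binding proteins and adhesion proteins are SRF targets, and CCN1, CCN2 and ANKRD1 are also widely used as readouts of YAP and TAZ, coactivators that bind DNA through TEAD factors. Epithelial lines use these proteins in stress fibres, the cell cortex and adhesions.

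The elements that these factors bind are shown first for 7 of the genes, because 4 of the 5 measured genes with a CArG box near the start fell at 40 nM at both times, and because CCN2 and ANKRD1, which hold more than 1 TEAD motif, moved in opposite directions at 40 nM at 48 h. Among these 4, the 48 h calls of SRF and ACTN1 ended under several alternatives, described below. The stretches are from RefSeq promoter windows of build GRCh38.p14 (250 bases before to 50 after a start), read 5′ to 3′ on the gene's strand and cut before the start. Capitals mark the CArG box in the first 5 lines and the TEAD motif in the last 2. The SRF stretch (chr6:43171214-43171268, plus strand) holds 2 CArG boxes, whose first bases lie 30 and 10 bases before the start. Those of ACTN1 (chr14:68977703-68977762, minus strand), TPM4 (chr19:16067340-16067399, plus strand), FHL2 (chr2:105399076-105399135, minus strand) and CNN2 (chr19:1026494-1026553, plus strand) hold 1 each, and their first bases lie 171, 173, 59 and 89 bases before the start. The CCN2 stretch (chr6:131951437-131951566, minus strand) holds 3 TEAD motifs at 169, 104 and 95 bases before the start, and that of ANKRD1 (chr10:90921185-90921332, minus strand) holds 2, at 220 and 128 bases.
SRF: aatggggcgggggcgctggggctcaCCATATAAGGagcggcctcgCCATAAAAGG
ACTN1: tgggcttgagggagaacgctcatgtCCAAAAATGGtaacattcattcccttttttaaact
TPM4: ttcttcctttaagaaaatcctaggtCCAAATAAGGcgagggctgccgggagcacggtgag
FHL2: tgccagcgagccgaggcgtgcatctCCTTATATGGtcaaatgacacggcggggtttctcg
CNN2: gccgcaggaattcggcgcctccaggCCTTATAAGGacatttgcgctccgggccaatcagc
CCN2: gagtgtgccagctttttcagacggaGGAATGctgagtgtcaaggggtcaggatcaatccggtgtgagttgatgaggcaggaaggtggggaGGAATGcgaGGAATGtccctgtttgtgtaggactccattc
ANKRD1: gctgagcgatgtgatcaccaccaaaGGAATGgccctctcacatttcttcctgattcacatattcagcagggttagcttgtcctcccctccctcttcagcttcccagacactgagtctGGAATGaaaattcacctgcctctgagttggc

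Windows were matched by symbol for 31 of the 35 genes (CCN1, MYL9, ACTB and TAGLN have none in the table used). A gene can have more than 1 window (56 for the 31 genes, 35116 for all 27305 genes in the table), and a gene with more windows has more room for a motif. The CArG box was searched on both strands as CC, then only A or T, then GG, 10 bases in all. Boxes with a mismatch or outside the windows were not counted. The exact box lies in a window of 7 of the 31 (22.6%) and of 1.6% of all genes. Counted by window, it lies in 9 of the 56 (16.1%) and in 1.29% of all windows. The 7 are SRF, ACTN1, TPM4, FHL2, CNN2, ACTG1 and FLNA. The TEAD motif (GGAATG, or CATTCC on the other strand) lies in a window of 14 of the 31 (45.2%) and of 16.7% of all genes. By window the shares are closer, with 15 of the 56 (26.8%) against 14% of all windows. Both motifs lie in 1 window of ACTN1, where they do not overlap. Of the 5 measured genes with an exact CArG box, SRF, ACTN1, TPM4 and FHL2 fell at 40 nM at both times and CNN2 passed in no comparison. Among the other 24 measured genes with a window, 4 (ZYX, PFN1, CCN2 and CORO2B) fell at both times. These 24 may hold boxes that were not counted. ACTA2, which rose in all 3 comparisons with vehicle, is 1 of them. The 48 h falls of SRF (-0.28) and ACTN1 (-0.17) lost their call when some single arrays were left out and with the mean of probe sets, so the count of 4 is not firm. Of all 19775 genes 1227 (6.2%) fell at both times, and of all 33 measured members 9 (27.3%) did. Of the 14 genes with a TEAD motif 5 fell at both times, and of the 15 without one 3 did. The list was chosen to hold SRF targets and includes YAP and TAZ readouts, so motif shares above those of all genes are partly set by that choice. These counts are a description of the letters in these windows and were not tested.

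Values are log2 expression values made by RMA (robust multi-array average). Their mean over all probe sets was 5.13 and 5.14 in the groups at 24 h and 5.52 in those at 48 h, and the median gene was 0.35 higher in vehicle at 48 h than at 24 h, so a level at one time set against the other holds a step that is not of these genes. Changes were therefore taken within a time. A level of one gene is not set against that of another, because probe sets differ in how they respond.

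The arrays of the 10 nM group stood apart from all others, which bears on every result at that dose. Poly-A spikes, foreign transcripts put into each RNA sample ahead of labelling, averaged 3.37 ± 0.04 (SD, n = 3) at 10 nM and 5.93 ± 0.06 in vehicle at 48 h. The 3 control probe sets along the ACTB transcript also differed. That at the 5′ end stood at 11.01, 11.02 and 11.04 at 10 nM and at 13.70, 13.72 and 13.81 in vehicle at 48 h, a difference of -2.72. The middle one differed by -1.37 and the one at the 3′ end by -0.39, while the 5′ control probe set of GAPDH differed by -0.03. The loss of ACTB signal at 10 nM thus grew towards the 5′ end, and for GAPDH no such gradient was measured. At 40 nM the 3 ACTB control probe sets differed from vehicle by between -0.15 and -0.06 at 48 h. Whatever set these arrays apart cannot be told apart from the dose, and its part in the 10 nM results was not tested.

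**Figure D1:**
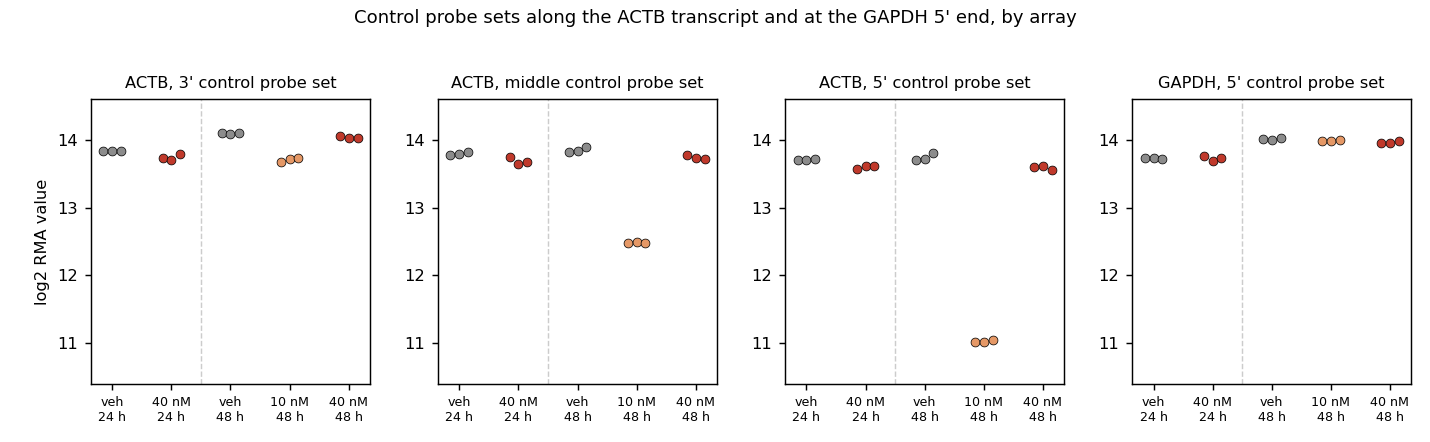
Log2 RMA values of the control probe sets along ACTB (3′, middle and 5′) and at the 5′ end of GAPDH, with 1 point for each of the 15 arrays in 5 groups. At 10 nM the ACTB 5′ probe set stood between 11.01 and 11.04, below every other array, whereas that of GAPDH differed from vehicle by -0.03.

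The cells had high levels of most of the markers listed for an epithelial line. Of 9 epithelial markers, 6 or 7 were in the top 10% of genes in every group. Among them were KRT8, KRT18 and KRT7 and the enzyme genes AKR1B10, AKR1C1 and ALDH1A1. Another 1 or 2 of the 9 were in the lower 50%. EPCAM had the lowest mean of the 9 in every group (3.97 to 5.63), and KRT19 stood at 4.85 in vehicle at 24 h. All 8 endothelial markers and 5 or 6 of 6 measured leukocyte markers were in the lower 50% of genes, as were 5 or 6 of 8 measured markers of alveolar type 2 cells. Of 12 markers of smooth muscle and fibroblasts, cells known for high levels of ACTA2 and TAGLN, 9 or 10 were in the lower 50%. Their summed log2 level on each array was 57.7 to 58.6 in vehicle and 58.2 to 58.7 at 40 nM at 24 h. At 48 h it was 67.0 to 67.3 in vehicle, 66.3 to 67.0 at 40 nM and 60.1 to 61.9 at 10 nM. The 10 nM arrays were thus lower in this sum than vehicle, without overlap. The difference between the group means was -5.99, of which LUM, a matrix proteoglycan gene, gave -3.45, and the other 11 markers differed by between -0.58 and 0.01. LUM stood at 2.53 in vehicle at 24 h, at 6.37 in vehicle at 48 h and at 2.92 at 10 nM. The labels name only the A549 line, and no other cell type. In a bulk sample fewer cells with a transcript and less RNA per cell cannot be told apart, and neither was tested.

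At 40 nM for 24 h, more of the 33 genes fell than rose. CORO2B, CCN2, TAGLN, TPM4 and FHL2 had the largest falls, and ACTA2 had the largest rise. In all, 15 genes fell and 5 rose. Among all 19775 genes 31.5% passed, 16.7% lower and 14.8% higher, so the share that fell was above the background in these 33 (45.5%) and the share that rose was 15.2%. Bright genes pass more often. With the dimmest 40% of genes left out, 28.3% of the other 11865 were lower and 25.4% higher, against 16 (53.3%) and 5 (16.7%) of the 30 members left. Of the 33, 3 fell and 1 rose at least 2-fold, against a background of 1.15% and 1.62%. The median change was -0.24 on the log2 scale, against -0.01 over all genes. These are limma calls with an adjusted p below 0.05 over all genes.

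The count of rises at 24 h rested on single arrays and on the pooled spread. It was 3 without vehicle replicate 2, without vehicle replicate 3, without 40 nM replicate 3, and when the fit held only the 2 compared groups.

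At 40 nM for 48 h, 11 of the 33 genes fell and 3 rose, with a median of -0.15 against -0.02 over all genes. The background was 21.3% in all, 10.7% lower and 10.5% higher, against 33.3% and 9.09% of these genes. Without the dimmest 40% of genes the background was 20.7% lower and 18.2% higher, against 46.7% and 6.67% of the 30 members left. Falls of at least 2-fold were measured in 3 genes and rises of that size in 2, with a background of 0.228% and 0.986%. The genes that fell at both times were SRF, ACTN1, TAGLN, TPM4, ZYX, PFN1, CCN2, FHL2 and CORO2B, and those that rose at both were ACTA2 and CNN3. These 9 that fell at both are 27.3% of the 33, against 6.2% of all genes, and the 2 that rose are 6.06%, against 6.24%. The 2 comparisons share no array. TAGLN2, CALD1, TPM1, TPM2 and CORO1C fell at 24 h and did not pass at 48 h.

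At 10 nM for 48 h, 14 of the 33 genes fell and 4 rose, with a median of -0.16 against 0.00 over all genes. The background was 26.3% in all, 11.9% lower and 14.4% higher, against 42.4% and 12.1% of these genes. Without the dimmest 40% of genes it was 20.4% lower and 25.2% higher, against 56.7% and 13.3% of the 30 members left. The comparison shares its vehicle arrays with that of 40 nM at 48 h. TAGLN, CCN2 and CALD1 fell at least 2-fold, LIMA1 and ACTA2 rose at least 2-fold (background 1.07% lower and 1.3% higher), and CNN3, LIMA1 and FHL2 passed in opposite directions at the 2 doses. Set directly against 10 nM, the 40 nM arrays were higher in 13 genes and lower in 4, with a background of 26.4% in all, 11.9% higher and 14.5% lower. Both this comparison and that of 10 nM with vehicle use the 10 nM arrays, with opposite sign, so genes called in both are given here only as counts. Of the 13 higher genes 10 (76.9%) had fallen at 10 nM, and of all 2345 genes called higher 1343 (57.3%) had.

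**Figure D2:**
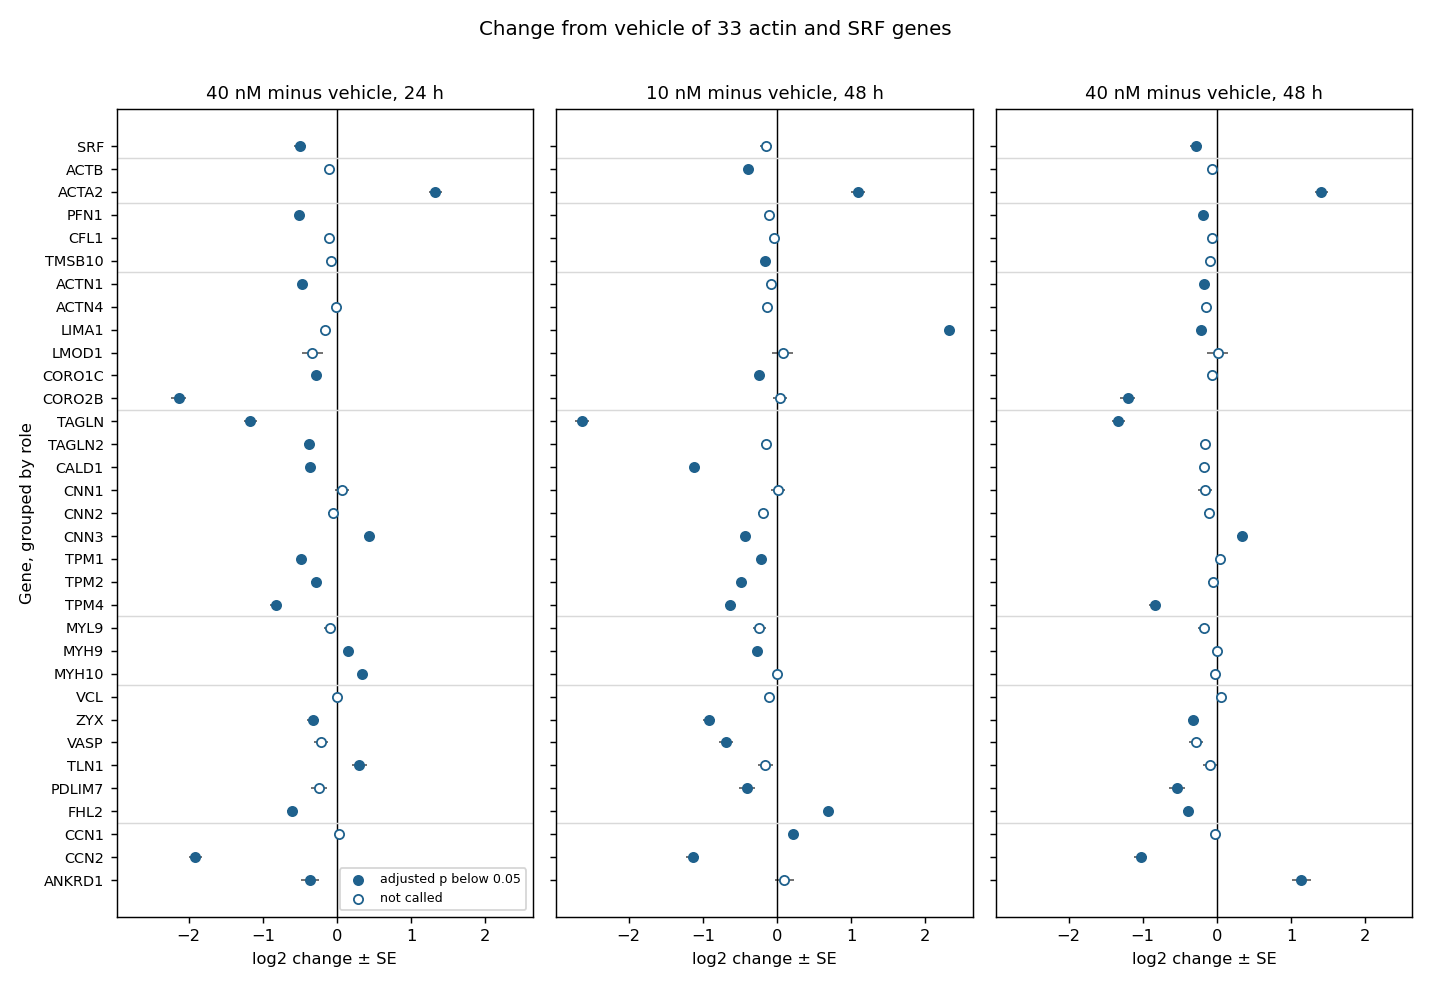
Log2 change from vehicle (points) with its standard error (bars) of the 33 genes, grouped by role, in 3 panels for 40 nM at 24 h, 10 nM at 48 h and 40 nM at 48 h; filled points passed at an adjusted p below 0.05. Falls outnumber rises in each panel (15 to 5, 14 to 4 and 11 to 3), and LIMA1 stands alone at 2.32 at 10 nM.

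SRF itself had a lower transcript level at 40 nM. Its log2 values were 8.02, 7.90 and 8.0 in vehicle and 7.48, 7.35 and 7.59 at 40 nM at 24 h. At 48 h they were 8.28, 8.07 and 8.28 in vehicle, 8.04, 8.17 and 7.98 at 10 nM, and 7.85, 7.94 and 7.99 at 40 nM. All 40 nM arrays were below all vehicle arrays of their time, and the 10 nM arrays overlapped with vehicle. SRF fell by 0.50 ± 0.08 (SE) at 24 h (adjusted p = 0.00023) and by 0.28 ± 0.08 at 48 h (adjusted p = 0.022), and at 10 nM it changed by -0.15 ± 0.08 (adjusted p = 0.24). The 48 h call ended with the mean of its probe sets (-0.07) and when vehicle replicate 1 or 3, or 40 nM replicate 1 or 2, was left out (-0.29 to -0.24).

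The SRF cofactors were described from a list of 8 genes. At 40 nM 1 rose and 2 fell at 24 h (median -0.12), and 4 fell and the rest did not pass at 48 h (median -0.17). The 24 h shares, 12.5% higher and 25% lower, are within 1 gene of the shares over all genes (14.8% and 16.7%). At 48 h 50% were lower, against 10.7% of all genes. The TCF member ELK3 fell by 0.91 ± 0.06 at 24 h, and MRTFB, a coactivator, rose by 0.44 ± 0.05. At 48 h MRTFA, the other MRTF of the list, fell by 0.36 ± 0.07, ELK4 by 0.48 ± 0.10 and MYOCD, the coactivator known from heart and smooth muscle, by 0.94 ± 0.13. At 10 nM 1 rose and 3 fell (12.5% and 37.5%, against 14.4% and 11.9% of all genes), and MYOCD fell by 2.24 ± 0.13 and MRTFA by 0.64 ± 0.07.

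The actins that could be read went separate ways. ACTA2 encodes smooth muscle alpha-actin, which non-muscle cells make in low amounts, and it rose in all 3 comparisons with vehicle. Its values were 7.40, 7.45 and 7.25 in vehicle and 8.84, 8.70 and 8.53 at 40 nM at 24 h. At 48 h they were 8.16, 8.13 and 8.08 in vehicle, 9.27, 9.33 and 9.04 at 10 nM, and 9.51, 9.50 and 9.58 at 40 nM. No treated array overlapped with vehicle. The rise was 1.32 at 24 h (2.50-fold), 1.09 at 10 nM (2.13-fold) and 1.41 at 40 nM at 48 h (2.65-fold). The further 0.32 from 10 to 40 nM lost its call without 10 nM replicate 3 (0.23) or without 40 nM replicate 3 (0.29), and with the mean of its probe sets (0.02).

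ACTB encodes the main cytoplasmic actin, together with ACTG1. Its probe set was near the highest value of the table (14.43), with 13.99 to 14.09 in vehicle and 13.91 to 13.95 at 40 nM at 24 h. At 48 h it stood at 14.26 to 14.28 in vehicle, 13.85 to 13.91 at 10 nM and 14.20 on all 3 arrays at 40 nM. Groups did not overlap in these comparisons, yet the change of -0.11 at 24 h and that of -0.07 at 48 h at 40 nM did not pass the test. ACTB fell by 0.39 at 10 nM, the size seen in its 3′ control probe set.

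**Figure D3:**
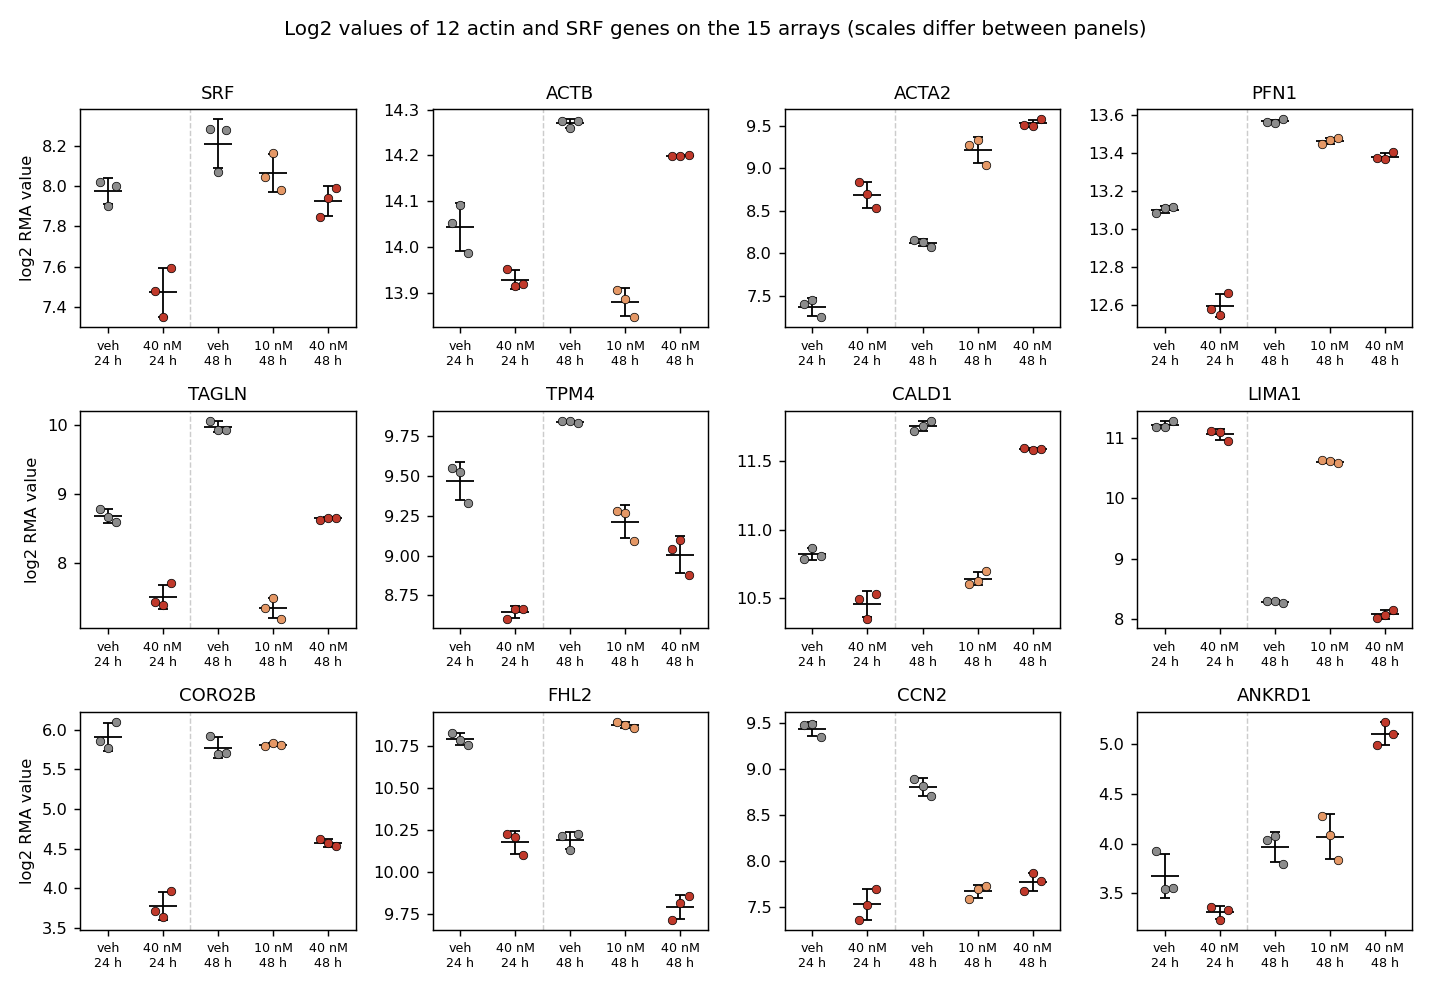
Log2 RMA values of 12 of the genes on the 15 arrays, with 1 point per array, in panels with scales of their own; a dashed line parts the 24 h from the 48 h arrays. ACTA2 is higher and TAGLN, TPM4 and CCN2 are lower on treated than on vehicle arrays of the same time, and LIMA1 at 10 nM (10.58 to 10.64) lies far above the other 48 h arrays.

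Among proteins that bind actin monomers or sever filaments, profilin changed and cofilin did not pass with the probe set used. PFN1, profilin, loads monomers onto growing filament ends. It stood at 13.08, 13.11 and 13.11 in vehicle and 12.58, 12.54 and 12.66 at 40 nM at 24 h, and at 13.56, 13.56 and 13.58 against 13.37, 13.37 and 13.41 at 48 h. The groups did not overlap at either time, and the fall of 0.51 ± 0.05 at 24 h was larger than that of 0.19 ± 0.05 at 48 h (difference 0.32 ± 0.07, adjusted p = 0.0042). The change in PFN1 at 10 nM, -0.10, did not pass. CFL1, the filament-severing cofilin, changed by -0.11, -0.03 and -0.07 in the 3 comparisons with vehicle and passed in none. The next brightest CFL1 probe set fell by 0.18 at 40 nM at 24 h (limma adjusted p = 0.031) and did not pass against vehicle at 48 h. TMSB10, a thymosin that holds monomers, fell by 0.16 at 10 nM (adjusted p = 0.029), a call that ended without any 1 of the 48 h vehicle or 10 nM arrays (-0.17 to -0.15).

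Among crosslinkers and coronins, CORO2B and LIMA1 changed most. CORO2B, a coronin of the type linked to adhesions and cell-cell contacts, fell more than any of the other genes at 24 h. Its values were 5.86, 5.77 and 6.10 in vehicle and 3.71, 3.64 and 3.97 at 40 nM at 24 h. At 48 h they were 5.92, 5.70 and 5.70 in vehicle, 5.79, 5.84 and 5.81 at 10 nM, and 4.62, 4.57 and 4.53 at 40 nM. The 10 nM arrays lay within the vehicle range, and all 40 nM arrays lay below it. CORO2B fell by 2.14 ± 0.10 at 24 h (adjusted p = 1.9e-09) and by 1.20 ± 0.10 at 48 h (adjusted p = 9.8e-07), and changed by 0.04 ± 0.10 at 10 nM. Its fall was smaller at 48 h than at 24 h by 0.93 ± 0.14 (adjusted p = 0.00031). The values at 40 nM lay under the median of all probe sets (4.67) at both times, so no fold is given and the size of the difference between the times is uncertain.

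CORO1C, a widely made coronin, moved less. It fell by 0.29 ± 0.05 at 24 h and by 0.25 ± 0.05 at 10 nM, and its change of -0.07 at 40 nM at 48 h did not pass. The alpha-actinin ACTN1, which crosslinks stress fibres, had 11.93 to 12.03 in vehicle and 11.46 to 11.54 at 40 nM at 24 h, with no overlap. It fell by 0.48 at 24 h and by 0.17 at 48 h, and the later call ended without vehicle replicate 2 or 3 or without 40 nM replicate 1 or 2 (-0.17 to -0.16), with the mean of its probe sets (-0.08), and without _x_at and _s_at probe sets (-0.17). ACTN4, its close relative, and LMOD1, a leiomodin that nucleates filaments in muscle, passed in no comparison.

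LIMA1 (EPLIN) bundles and steadies filaments. It stood at 8.30, 8.30 and 8.26 in vehicle at 48 h, at 10.64, 10.61 and 10.58 at 10 nM and at 8.01, 8.06 and 8.15 at 40 nM. The 10 nM arrays were thus 2.32 ± 0.06 above vehicle (5.0-fold, adjusted p = 6.5e-12) while the 40 nM arrays differed from vehicle by -0.21 ± 0.06 (adjusted p = 0.021). At 24 h the vehicle arrays had 11.18, 11.19 and 11.29 and the 40 nM arrays 11.12, 11.10 and 10.96, a change of -0.16 that did not pass. All 3 LIMA1 probe sets were higher at 10 nM than in vehicle. The fall at 40 nM ended under several alternatives, among them leaving out vehicle replicate 1 or 2 or 40 nM replicate 1 or 2 (-0.21 to -0.18).

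In vehicle, LIMA1 was lower at 48 h than at 24 h (difference -2.93), so at 10 nM for 48 h it stood nearer to vehicle at 24 h than to vehicle at 48 h. This was not particular to LIMA1. Of 101 genes in the whole table whose vehicle level differed between times by at least 2 beyond the median gene, 72 (71.3%) were nearer to the 24 h vehicle on the arrays labelled 10 nM, against 2 (1.98%) at 40 nM for 48 h. Of 526 genes that differed by at least 1 the counts were 282 (53.6%) and 44 (8.37%). Among the members 9 differed by at least 0.5 beyond the median, and 5 of them (LIMA1, FHL2, ZYX, CALD1 and TAGLN) were nearer to the 24 h vehicle at 10 nM, with the median step between the times taken off, while CCN1, CCN2, CNN2 and TLN1 were nearer to the 48 h vehicle. This cut-off of 0.5 is below those of 1 and 2 used for all genes. The 5 of 9 therefore have no like share over all genes, and the members were not counted at 40 nM. TAGLN also went past the 24 h level, by -1.68 after the step was taken off, and CCN2 lay below both vehicle groups. The arrays are taken here as labelled, 10 nM for 48 h, and these values do not check that label. They are values across the step between times, given with no test, and the part of these differences in the 10 nM results was not tested.

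Proteins that lie along the filament fell in most cases at 40 nM at 24 h and at 10 nM. Of 9 measured tropomyosins, caldesmon, calponins and transgelins, 6 fell and 1 rose at 40 nM at 24 h, 6 fell and the other 3 did not pass at 10 nM, and 2 fell and 1 rose at 40 nM at 48 h. The 6 falls are 66.7% of the 9, against 16.7% of all genes at 24 h and 11.9% at 10 nM. At 40 nM at 48 h the 22.2% lower and 11.1% higher stand against 10.7% and 10.5%, and with 9 genes these are about 1 gene or less from the background. The medians were -0.36, -0.43 and -0.16.

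TAGLN (SM22, transgelin), a filament-binding protein of smooth muscle and a classic SRF target, fell in all 3 comparisons with vehicle. It had 8.79, 8.66 and 8.59 in vehicle and 7.44, 7.39 and 7.71 at 40 nM at 24 h. After 48 h its values were 10.06, 9.93 and 9.92 in vehicle, 7.35, 7.49 and 7.20 at 10 nM, and 8.63, 8.65 and 8.66 at 40 nM. The 3 groups at 48 h did not overlap, and the lower dose had the lowest values. TAGLN fell by 1.17 ± 0.09 at 24 h (2.25-fold), by 2.63 ± 0.09 at 10 nM (6.17-fold) and by 1.33 ± 0.09 at 40 nM at 48 h (2.51-fold, adjusted p = 2.2e-07), and was 1.30 higher at 40 nM than at 10 nM. A second TAGLN probe set gave -1.11, -2.46 and -1.16, while the dimmest one, which alone is left without _x_at and _s_at probe sets, gave -0.15, -0.18 and -0.12 and passed in none. TAGLN2, the transgelin of non-muscle cells, fell by 0.38 at 24 h and changed by -0.15 and -0.16 at 48 h, where it did not pass.

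Tropomyosins wind along filaments and set which motors and severing proteins reach them. TPM4 had 9.55, 9.53 and 9.33 in vehicle and 8.60, 8.67 and 8.66 at 40 nM at 24 h. The 48 h values were 9.85, 9.85 and 9.84 in vehicle, 9.28, 9.27 and 9.09 at 10 nM, and 9.04, 9.10 and 8.88 at 40 nM. Every treated array was below every vehicle array of its time. TPM4 fell by 0.83 ± 0.08, 0.63 ± 0.08 and 0.84 ± 0.08 in the order 40 nM at 24 h, 10 nM and 40 nM at 48 h, and the difference between the 40 nM effects at the 2 times was -0.01 ± 0.11. The 10 nM call ended without _x_at and _s_at probe sets (-0.27).

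TPM1 and TPM2 fell at 24 h and at 10 nM, and did not pass at 40 nM at 48 h. TPM1 fell by 0.49 at 24 h and by 0.22 at 10 nM and changed by 0.05 at 40 nM at 48 h, and its 40 nM effects differed between the times by 0.54 ± 0.07 (adjusted p = 7.1e-05). Both the 24 h value and the difference turned sign without _x_at and _s_at probe sets (0.13 and -0.40, the latter with an adjusted p of 0.017), when TPM1 was read from a dimmer probe set. A further dimmer probe set, with a mean of 8.55 in all, gave -0.97 at 24 h and -0.84 at 40 nM at 48 h (adjusted p = 4.4e-05), and that read without _x_at and _s_at probe sets gave -0.27 at 40 nM at 48 h (adjusted p = 0.020), so the probe sets of TPM1 disagree on the 48 h change. TPM2 fell by 0.29 and by 0.48 and changed by -0.06, in the same order. Its 24 h call ended with the mean of its probe sets (-0.04) and without _x_at and _s_at probe sets (-0.20).

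CALD1, caldesmon, which blocks myosin from the filament, fell mostly at 10 nM. It had 11.72, 11.76 and 11.80 in vehicle at 48 h, 10.60, 10.62 and 10.69 at 10 nM and 11.60, 11.58 and 11.59 at 40 nM. The fall was 1.12 ± 0.06 at 10 nM (2.17-fold), against a change of -0.17 at 40 nM that did not pass. At 24 h CALD1 fell by 0.36, a call that ended with the mean of its 11 probe sets (-0.14).

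The calponins differed from each other. CNN3, the calponin of non-muscle cells, had 9.52, 9.39 and 9.31 in vehicle and 9.82, 9.81 and 9.86 at 40 nM at 24 h. The later values were 9.86, 9.76 and 9.82 in vehicle, 9.45, 9.42 and 9.30 at 10 nM, and 10.13, 10.23 and 10.11 at 40 nM. It rose by 0.43 ± 0.07 and 0.34 ± 0.07 at 40 nM and fell by 0.43 ± 0.07 at 10 nM. The groups did not overlap, but at 10 nM its other probe set gave 0.53, and the mean of the 2 gave 0.05, which did not pass. CNN1 and CNN2 passed in no comparison.

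Myosin II pulls filaments past each other. MYH9 and MYH10, its non-muscle heavy chains, rose at 40 nM at 24 h by 0.15 and 0.33 ± 0.05. MYH10 had 10.11, 10.07 and 9.97 in vehicle and 10.32, 10.41 and 10.41 at 40 nM, with no overlap. It changed by -0.02 at 48 h, a difference of -0.36 ± 0.08 between the times (adjusted p = 0.0042). A dimmer MYH10 probe set rose by 0.53 at 24 h and changed by 0.29 at 40 nM at 48 h. Its difference of -0.24 between the times did not pass (limma adjusted p = 0.46). The rise of MYH9 was small and ended with the 2 compared groups alone and without vehicle replicate 2 or 3 or 40 nM replicate 3 (0.13 to 0.16). At 10 nM MYH9 fell by 0.26, and at 40 nM at 48 h its change was under 0.01 in size. MYL9, a regulatory light chain that is a muscle-type SRF target, passed in no comparison with the probe set used. Its other, dimmer probe set moved in opposite directions at the 2 doses. It gave -1.61 at 10 nM (limma adjusted p = 3.8e-09) and 0.29 at 40 nM at 48 h (adjusted p = 0.029). Between the doses it was 1.90 higher at 40 nM, and its mean of 4.57 at 10 nM lay below the median of all probe sets (4.67).

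Adhesion proteins and LIM-domain proteins link filaments to the integrin sites. ZYX, zyxin, a LIM protein that moves to strained filaments, fell in all 3 comparisons. It had 7.98, 7.81 and 7.66 in vehicle and 7.39, 7.61 and 7.49 at 40 nM at 24 h. After 48 h ZYX had 8.85, 8.83 and 8.75 in vehicle, 7.94, 7.92 and 7.82 at 10 nM, and 8.48, 8.51 and 8.50 at 40 nM. ZYX fell by 0.32 ± 0.08 at 40 nM at each time and by 0.92 ± 0.08 at 10 nM (1.89-fold), the lowest of the 48 h groups. A second ZYX probe set of like brightness changed by -0.13 at 24 h, which did not pass (limma adjusted p = 0.13). It fell by 0.78 at 10 nM and by 0.25 at 40 nM at 48 h. The 24 h call of the probe set used had a limma adjusted p of 0.071 when only the 2 compared groups were fitted.

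FHL2, a LIM protein that also acts in the nucleus as a cofactor, moved in opposite directions at the 2 doses. It had 10.83, 10.78 and 10.76 in vehicle and 10.23, 10.21 and 10.10 at 40 nM at 24 h. In the 48 h groups FHL2 had 10.21, 10.13 and 10.22 in vehicle, 10.90, 10.88 and 10.86 at 10 nM, and 9.72, 9.81 and 9.86 at 40 nM. FHL2 fell by 0.61 ± 0.06 and 0.39 ± 0.06 at 40 nM and rose by 0.69 ± 0.06 at 10 nM, with no overlap between groups. Like LIMA1, it was lower in vehicle at 48 h than at 24 h (difference -0.60), and at 10 nM it stood 0.09 above the 24 h vehicle, with the step between the times not taken off.

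Of the other adhesion genes, VASP, which lengthens filaments, fell by 0.69 ± 0.09 at 10 nM (1.62-fold), and its changes of -0.21 and -0.28 at 40 nM did not pass. PDLIM7, a LIM protein of stress fibres, fell by 0.40 at 10 nM and by 0.54 at 40 nM at 48 h and changed by -0.24 at 24 h, and its next brightest probe set gave -1.0, -0.92 and -0.92 at 40 nM at 24 h, 10 nM and 40 nM at 48 h. VCL, vinculin, passed in no comparison with vehicle, and its 0.16 between the doses ended under several alternatives and without 10 nM replicate 1 or 2 or any 40 nM array at 48 h (0.13 to 0.17). TLN1, talin, which ties integrins to filaments, was called higher at 24 h (0.30 ± 0.10, adjusted p = 0.037). That call ended without vehicle replicate 2 or 3 or 40 nM replicate 1 or 3 (0.23 to 0.29), and without _x_at and _s_at probe sets another probe set gave -0.40 with an adjusted p of 0.013.

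The 3 target genes outside the cytoskeleton did not move together. CCN2 (CTGF), a secreted matrix protein, fell in every comparison with vehicle. It had 9.47, 9.49 and 9.35 in vehicle and 7.36, 7.53 and 7.70 at 40 nM at 24 h. In the 48 h groups CCN2 had 8.89, 8.81 and 8.70 in vehicle, 7.59, 7.69 and 7.73 at 10 nM, and 7.67, 7.87 and 7.79 at 40 nM. The treated groups at 48 h overlapped with each other and not with vehicle. CCN2 fell by 1.91 at 24 h (3.76-fold), by 1.13 at 10 nM (2.19-fold) and by 1.03 at 40 nM at 48 h (2.04-fold), and the fall was smaller at 48 h than at 24 h by 0.88 ± 0.12 (adjusted p = 0.00017).

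CCN1 (CYR61), the relative of CCN2, did not pass at 40 nM at either time (0.02 and -0.02). It was called 0.22 higher at 10 nM, where its other probe set gave -0.08 and the mean of both (0.07) did not pass. ANKRD1, a nuclear protein induced in stretched muscle, was dim at 24 h, with 3.93, 3.55 and 3.55 in vehicle and 3.36, 3.23 and 3.34 at 40 nM. At 48 h it had 4.04, 4.07 and 3.79 in vehicle, 4.28, 4.09 and 3.83 at 10 nM, and 5.0, 5.23 and 5.10 at 40 nM. Only the 40 nM arrays at 48 h were above the median of all probe sets. ANKRD1 rose by 1.14 at 40 nM at 48 h, from vehicle values below that median, so no fold is given, and its fall of 0.37 at 24 h, between values below that median, ended without vehicle replicate 1 (-0.24), without any 1 of the 40 nM arrays at 24 h (-0.39 to -0.33), without 40 nM replicate 3 at 48 h (-0.37) and under 2 alternatives.

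The 40 nM effect differed between 24 h and 48 h in 8 of the 33 genes, 7 with a higher value at 48 h and 1 with a lower one. Over all genes 17.3% differed, 9.18% higher and 8.11% lower. In ACTN1, PFN1, CCN2 and CORO2B a fall became smaller, in TPM1 and CORO1C a fall at 24 h was followed by a change that did not pass, ANKRD1 turned from a fall to a rise (with all 24 h and vehicle values below the median of all probe sets), and in MYH10 a rise was followed by no call. The differences ran from 0.22 (CORO1C) to 1.5 ± 0.18 (ANKRD1), apart from MYH10. MYH10 lost this call with the mean of its probe sets. The call of CORO1C ended when any 1 array was left out (0.19 to 0.23) other than vehicle replicate 1 at 24 h, 40 nM replicate 1 at 24 h and 10 nM replicate 3, and without the 10 nM arrays (0.22, adjusted p = 0.065), an alternative added after the data were seen.

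**Figure D4:**
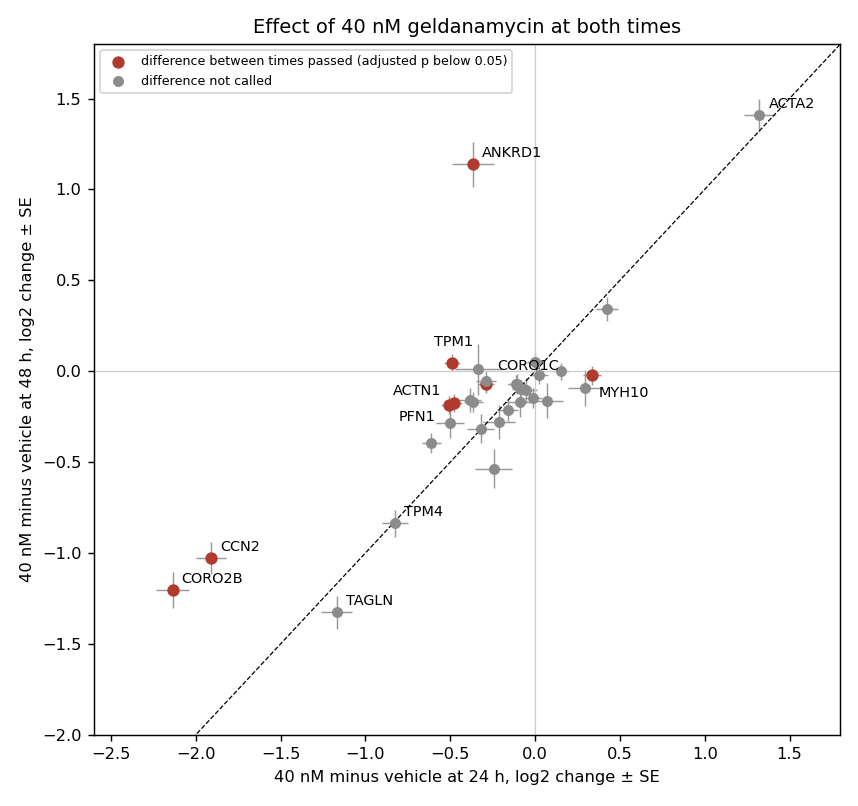
Log2 change with 40 nM against vehicle at 24 h (horizontal) and at 48 h (vertical), with standard errors, for the 33 genes; the dashed line marks equal changes, and coloured points are the 8 genes whose difference between times passed. CORO2B (-2.14 and -1.20) and CCN2 (-1.91 and -1.03) lie above the line, and ANKRD1 (-0.37 and 1.14) is farthest from it.

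Of the 33 genes 22 have more than 1 probe set with the single symbol, 87 in all. Among called genes with another probe set above the median level of all probe sets (4.67), every such probe set had the sign of the one used for 9 of 13 at 40 nM at 24 h, 8 of 12 at 10 nM and 7 of 8 at 40 nM at 48 h. The genes that did not included CNN3 and CCN1 at 10 nM, described above.

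**Figure D5:**
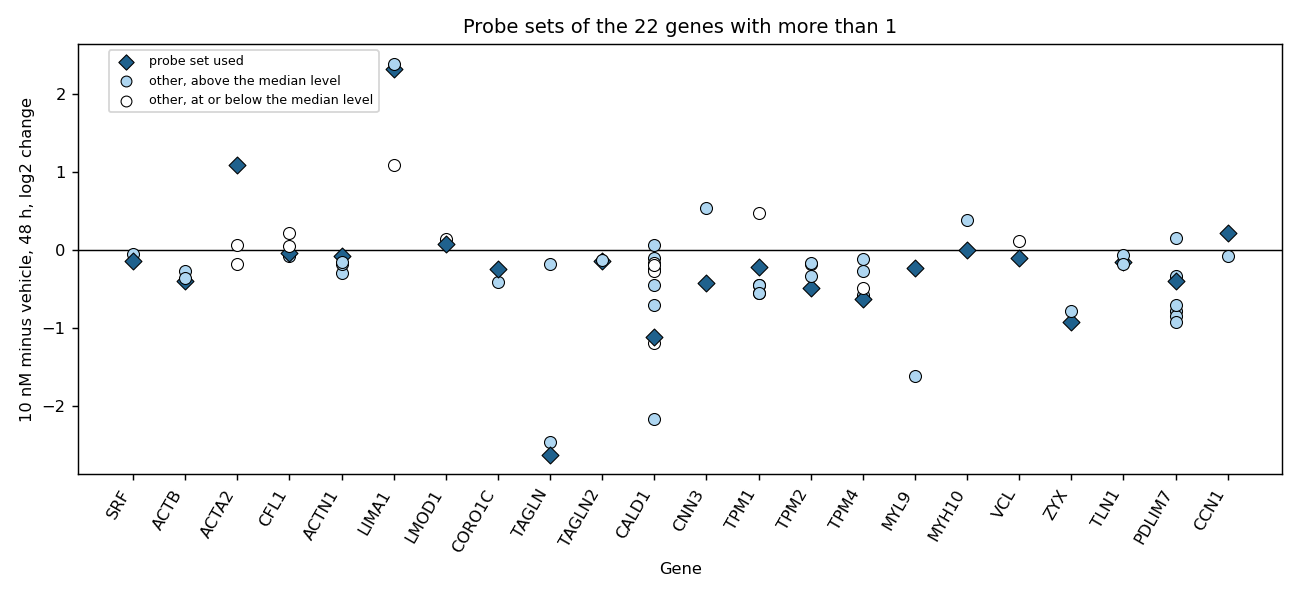
Log2 change at 10 nM against vehicle at 48 h for each single-symbol probe set of the 22 genes that have more than 1; diamonds are the probe sets used, filled circles others above the median level and open circles others at or below it. For TAGLN 2 probe sets lie at -2.63 and -2.46 and 1 at -0.18, and for CNN3 the probe sets lie at -0.43 and 0.53.

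The genes around this set were described from further lists of the pathway, whose counts stand against the background of all genes given above: 14.8% higher and 16.7% lower at 40 nM at 24 h, 10.5% and 10.7% at 40 nM at 48 h, and 14.4% and 11.9% at 10 nM. Of 17 nucleation genes (formins, the Arp2/3 complex and its activators), 4 rose and 8 fell at 40 nM at 24 h, and 3 rose and 3 fell (17.6% each) at 48 h. The formins DIAPH3 and FMNL3 fell by 0.97 ± 0.07 and 0.90 ± 0.15 at 24 h, and FHOD1 rose by 0.53 ± 0.06. At 48 h the Arp2/3 subunits ARPC1A and ACTR3 fell by 0.43 and 0.36. At 10 nM 3 rose and 8 fell, and ARPC1A fell by 1.17.

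Of 14 turnover and capping genes, 3 rose and 1 fell at 24 h and 2 rose and 2 fell at 48 h at 40 nM. CAP2, a cyclase-associated protein that recharges monomers, rose by 1.02 and 0.49, and TMOD1, a tropomodulin that caps filaments, by 0.59 and 0.52. At 10 nM 4 of these genes rose and 5 fell (median -0.03). The 48 h shares at 40 nM, 14.3% each way, are within 1 gene of the background. The severing protein gelsolin (GSN) rose by 0.73 at 24 h, and the capping protein CAPG fell by 0.75 at 48 h. Of 23 filament binding and motor genes, 8 rose and 4 fell at 24 h and 3 rose and 5 fell at 48 h, with SYNPO (synaptopodin) up by 1.31 and 0.56 and the filopodial motor MYO10 by 0.60 and 0.46. At 10 nM 4 of the 23 rose and 7 fell (median 0.01).

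Of 22 focal adhesion genes, 9 rose and 7 fell at 24 h and 5 rose and 9 fell at 48 h at 40 nM. TES, the LIM protein testin, fell by 1.01 ± 0.05 and 0.94 ± 0.05, LPP rose by 1.01 at 24 h, and TGFB1I1 (Hic-5), a relative of paxillin, fell by 0.77 at 40 nM at 48 h and fell by 1.36 at 10 nM. The list as a whole had medians of 0.01 and -0.02 at 40 nM, and at 10 nM 4 rose and 9 fell (median -0.17).

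The targets that SRF shares with TCF factors, a list of 12 immediate early genes, had 6 falls and 2 rises at 24 h (median -0.41) and 4 falls and 1 rise at 48 h (median -0.12) at 40 nM. EGR1 fell by 2.11 ± 0.07 and 2.65 ± 0.07 at the 2 times. FOS, a part of the AP-1 factor, fell by 1.90 ± 0.12 at 24 h and fell by 2.28 ± 0.12 at 48 h, and KLF6 fell by 1.56 ± 0.11 at 24 h. At 10 nM 2 rose and 3 fell, and FOS fell by 1.72 ± 0.12. ATF3, of the same list, rose by 1.08 ± 0.11 at 10 nM and by 0.84 ± 0.11 at 40 nM at 48 h. Set against 10 nM, EGR1 changed by -2.64 ± 0.07 at 40 nM at 48 h.

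In the YAP and TAZ list of 15 genes, 7 rose and 4 fell at 24 h (median 0.18) and 4 rose and 3 fell at 48 h (median 0.04) at 40 nM. WWTR1, which encodes TAZ, rose by 0.89 ± 0.05 and its DNA-binding partner TEAD1 by 0.71 ± 0.05 at 24 h. The receptor gene AXL fell by 1.44 ± 0.05 at 48 h. The medians of the list stand against -0.01 and -0.02 over all genes. It holds coactivators, DNA-binding partners and other genes of the pathway, so its median does not measure pathway activity, which was not tested. At 10 nM 4 rose and 6 fell (median -0.03).

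On arrays there is no read depth, and the number of arrays limits the precision. For the change with 40 nM at 24 h the standard error had a median of 0.07 in the 33 genes and 0.10 over all genes.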

How the data were processed

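Total RNA of A549 cells was measured on 15 arrays, 3 in each of 5 groups. The authors deposited a log2 value for every probe set on every array; the submitters' processing notes name RMA and Affymetrix Expression Console, and give no version. RMA makes arrays alike by quantiles, which removes any shift shared by all genes, and the arrays of each time look as if they were normalized in a run of their own. Of 54675 probe sets, 62 are controls, 41091 have 1 symbol, 1801 several and 11721 none; current symbols were taken by gene ID for 41037 of them. This gave 19775 genes, each represented by the brightest of its single-symbol probe sets.

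limma 3.58.1 (lmFit, eBayes; R 4.3.3) fitted 1 mean per group over the 15 arrays, with 10 residual degrees of freedom, two-sided p-values adjusted by Benjamini-Hochberg over all genes and a threshold of 0.05; "±" after a change is the standard error, with 3 arrays per group. The fit was tested on simulated data. All 35 genes may be named, and from each pathway list up to 3 called genes with the largest change per comparison; the list and the pathway lists were chosen with earlier results of these data known. The results of 1 pathway list are not reported here. Promoter sequences and motifs come from RefSeq (GRCh38.p14). Alternatives were other scaling, a filter on dim genes, other probe sets, a replicate block, the compared groups alone, another prior, and each array left out; leaving out the 10 nM arrays was added after the data were seen.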

Additional observations from a re-analysis of the deposited data

Results flagged for a closer look

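In 8 of the genes the effect of 40 nM differed between 24 h and 48 h by a test of the difference itself (limma, adjusted over all genes). The log2 change at 48 h exceeded that at 24 h by 0.31 in ACTN1, by 0.54 in TPM1, by 0.32 in PFN1, by 0.88 in CCN2, by 1.5 in ANKRD1, by 0.22 in CORO1C and by 0.93 in CORO2B. In MYH10 the difference was -0.36. The differences of TPM1, CORO1C and MYH10 are among the least settled. That of TPM1 turned to -0.40 without _x_at and _s_at probe sets. That of CORO1C lost its call in most fits with an array left out, and that of MYH10 with the mean of probe sets. Those of ANKRD1 and CORO2B rest on values below the median of all probe sets on at least 1 side. A step between the times drops out of these differences only if it has the same size on all arrays and at every level. A step whose size depends on the level would not drop out, and its part in these differences was not tested.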

How the results depend on the processing

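Of the 77 called changes of single genes, all 77 kept their call with array medians subtracted and with an intensity trend and robust prior, 74 with cyclic loess, 73 of 73 without the dimmest 40% of genes, 69 with the compared groups alone, 63 with all probe sets of a gene averaged and 46 of 57 without _x_at and _s_at probe sets, which left 23 genes. Values that turned sign were those of TLN1 (-0.40) and TPM1 (0.13) at 40 nM at 24 h and of TPM1 between the times (-0.40), without _x_at and _s_at probe sets, and those of CNN3 at 10 nM (0.055) and VCL between the doses (-0.023), with the mean of probe sets. Counts moved by over 1.5 times as follows, and the cause was not tested beyond the fewer genes left. Without _x_at and _s_at probe sets 3 genes rose at 40 nM at 24 h, 2 rose and 8 fell at 10 nM, 7 fell at 40 nM at 48 h, 8 were higher and 2 lower at 40 nM than at 10 nM, and 2 had a lower effect at 48 h than at 24 h. That last count was also 2 with cyclic loess and without the dimmest genes, and 0 with the mean of probe sets (limma; 3 at an unadjusted p below 0.05, as in the report's fit, which called 1). With an intensity trend and robust prior 17 genes fell at 40 nM at 48 h, 7 were lower at 40 nM than at 10 nM and 11 had a higher effect at 48 h, and with the compared groups alone 3 rose at 40 nM at 24 h.

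With each array left out, rises and falls ran from 3 to 5 and from 14 to 17 at 40 nM at 24 h, from 4 to 4 and from 13 to 15 at 10 nM, and from 3 to 3 and from 8 to 13 at 40 nM at 48 h. Between the doses they ran from 10 to 13 and from 4 to 5, and between the times from 6 to 7 and from 1 to 2, with 2 without 24 h vehicle replicate 1 or 48 h vehicle replicate 2. Same-numbered arrays of the groups compared at one time did not consistently deviate together (correlations from -0.41 to 0.29), so no pairing by number was shown. With 3 arrays per group such correlations cannot exclude a pairing. With the replicate number as a block (the replicate block), 75 of the 77 calls held. Those of VCL between the doses (adjusted p = 0.06) and CORO1C between the times (adjusted p = 0.063) did not. Without the 10 nM arrays 41 of the 42 calls that do not use them held.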
